A study of Mus musculus with 6 samples.

Results

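Spp1 is the gene of osteopontin, and it was followed here through 4 scRNA-Seq libraries of CD45+ cells from the ventral midbrain of Line 61 mice. It is 1 of 32285 genes counted, and 77105 cells were kept, of which 70790 were microglia (MG) and 812 were border macrophages. All mice were male Line 61 littermates, so the human α-Syn transgene under the Thy1 promoter was carried by controls and treated animals alike. They were 12 to 15 weeks old when both striata were injected with PBS, with monomer or with PFF, that is with buffer, with monomeric human α-Syn or with sonicated preformed fibrils. PFF mice then received either vehicle (PFF + VH) or the JAK1/2 inhibitor AZD1480 (PFF + AZD1480) by gavage, at 25 mg/kg each day for 4 weeks from week 2, and the cells were collected at week 6. No mouse without the transgene and no AZD1480 group without PFF was analysed, 3 to 5 midbrains were pooled per sample, and each condition gave 1 library. The PFF + VH library carried 4 hashtags and the PFF + AZD1480 library 5 hashtags (DNA-barcoded antibodies that mark cells before they are pooled), which are taken here, as an assumption, for the replicates. PBS and monomer had no hashtags, so all values across the 4 libraries are a description. Spp1 was selected on its own measured values, that is its share of expressing cells, its level and its co-expressed genes by class, library and hashtag. No test is therefore given for it, and its co-expression is a description. The tests below are on other genes, some of them picked by their co-expression with Spp1.

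Osteopontin is a secreted phosphoprotein that binds integrins and CD44 on the same or neighbouring cells, and it was first known from bone matrix. In the brain its transcript is low in resting microglia and is a well-known member of the program of disease-associated microglia, the state that microglia take up near amyloid, dying cells and demyelination. Border macrophages, which live in the meninges and around vessels, can express it as well.

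The gene lies on chromosome 5 at chr5:104435118-104441050 of GRCm38, on the plus strand, and has 7 annotated transcripts over 5933 bases. It stands at the end of the cluster of the SIBLING family of bone and dentin matrix genes, with Mepe upstream and Pkd2 downstream. The other members of the family gave almost nothing in these cells. Ibsp, Mepe and Dspp had 0 UMIs in all 4 libraries and Dmp1 had 9 UMIs, all with PFF + VH, whereas Spp1 had 9371 UMIs in PBS, 4563 in monomer, 31137 with PFF + VH and 14302 with PFF + AZD1480. The RefSeq sequence of the 250 bases before the Spp1 start (chr5:104434861-104435110, GRCm38.p6, plus strand) is shown because Spp1 was the expressed member of the cluster and because STAT factors, which JAK kinases activate, act at promoters. Capitals mark a match to the RUNX letters AACCACA and a match to the ETS letters GAGGAAGT.
Spp1 promoter: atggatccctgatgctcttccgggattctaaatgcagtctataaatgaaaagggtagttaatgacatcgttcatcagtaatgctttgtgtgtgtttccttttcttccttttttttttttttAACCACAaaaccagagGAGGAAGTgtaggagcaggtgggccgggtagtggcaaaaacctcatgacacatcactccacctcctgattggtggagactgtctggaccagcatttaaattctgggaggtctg
Counted from the RefSeq start, which is the base after this window and not the first base of the gene annotation given above, the RUNX letters began 129 bases before the start and the ETS letters 113 bases before it. Of 32851 mouse promoter windows of 250 upstream bases, 4.40% held AACCACA and 2.44% held GAGGAAGT on either strand. The STAT letters TTCNNNGAA and the AP-1 letters TGANTCA, which 7.02% and 6.75% of the windows held, had 0 matches in that of Spp1. These 4 motifs were chosen after the sequence was seen, and a match of letters is no evidence of binding.

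Libraries differed in depth per cell. The median cell kept had 7028 UMIs (unique molecules counted) in PBS, 6688 in monomer, 2306 with PFF + VH and 6616 with PFF + AZD1480, over 14617, 15031, 34436 and 13021 cells. Levels are therefore given as CPM, counts per 1000000 UMIs of a class summed over its cells, and shares of cells after each cell was thinned at random to 1000 UMIs. Cells with fewer than 1000 UMIs were left out of the shares. Of the MG these were 506 in PBS, 787 in monomer, 4730 with PFF + VH and 365 with PFF + AZD1480. Intervals are exact 95% limits, Poisson for CPM and binomial for shares, and cover counting error only. Between 45 and 151 cell barcodes were shared by any pair of libraries. MG had at least 5 UMIs from at least 3 microglia markers (such as P2ry12 and Tmem119), and fewer than 3 markers of any other class. They also had at least 5 microglia marker UMIs per 1000, which leaves out microglia low in these markers. Border macrophages had at least 5 UMIs from at least 3 of Mrc1, Pf4, Ms4a7, F13a1, Cd163, Lyve1, Stab1, Cbr2, Folr2 and Cd209f. Their border marker UMIs were no fewer than their microglia marker UMIs. A further 592 cells with border markers but more microglia marker UMIs were set apart. Spp1 was in neither list. The rule itself sets the marker levels of the classes: the summed microglia markers stood at 18200 to 21424 CPM in MG, and the summed border macrophage markers at 10544 to 13776 CPM in border macrophages against 88.5 to 102 CPM in MG.

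Among the MG of the 4 libraries, Spp1 was highest with PFF + VH. The MG level was 96.6 CPM in PBS (94.7 to 98.6), 44.7 CPM in monomer (43.4 to 46.1), 292.8 CPM with PFF + VH (290 to 296) and 165.2 CPM with PFF + AZD1480 (162 to 168). The level with PFF + VH was thus 3.03 times that in PBS, 6.55 times that in monomer and 1.77 times that with PFF + AZD1480, and the level with PFF + AZD1480 was 1.71 times that in PBS. These folds are for cells within the study's upper limits on UMIs and genes, and those of PFF + VH are smaller without the limits. The levels were then 166 CPM in PBS, 72.4 in monomer, 313 with PFF + VH and 263 with PFF + AZD1480. PBS stood 2.16 times above monomer, and neither of them received fibrils. MG held 97.9% of all Spp1 UMIs in PBS, 90.7% in monomer, 93.9% with PFF + VH and 89.9% with PFF + AZD1480, while they were 91.0%, 91.8%, 93.0% and 89.5% of the cells.

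Border macrophages had little Spp1 in any library. Their level was 13.2 CPM in PBS (7.37 to 21.7), 31.9 CPM in monomer (20.3 to 47.9), 61.3 CPM with PFF + VH (43.6 to 83.8) and 17.6 CPM with PFF + AZD1480 (10.6 to 27.4), from 15, 23, 39 and 19 UMIs. T and NK cells were set beside them as a measure of free RNA taken up with a cell, although activated T and NK cells can express the gene themselves. They stood at 19.4, 43.5, 61.0 and 28.8 CPM, with intervals that overlap those of border macrophages in all 4 libraries. In T and NK cells of monomer, 22 of the 45 UMIs came from a single cell. Relative to MG, the Spp1 level of border macrophages was 13.6% in PBS, 71.5% in monomer, 20.9% with PFF + VH and 10.6% with PFF + AZD1480, and the summed microglia markers in the same cells were at 14.4%, 14.8%, 22.0% and 16.4% of their MG level. In T and NK cells the percentages were 20.1%, 97.4%, 20.8% and 17.4% for Spp1 and 6.69%, 4.99%, 22.6% and 12.5% for the microglia markers. Spp1 in border macrophages thus could not be told apart from its level in T and NK cells in these sums, and whether free RNA accounts for it was not tested.

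**Figure D1:**
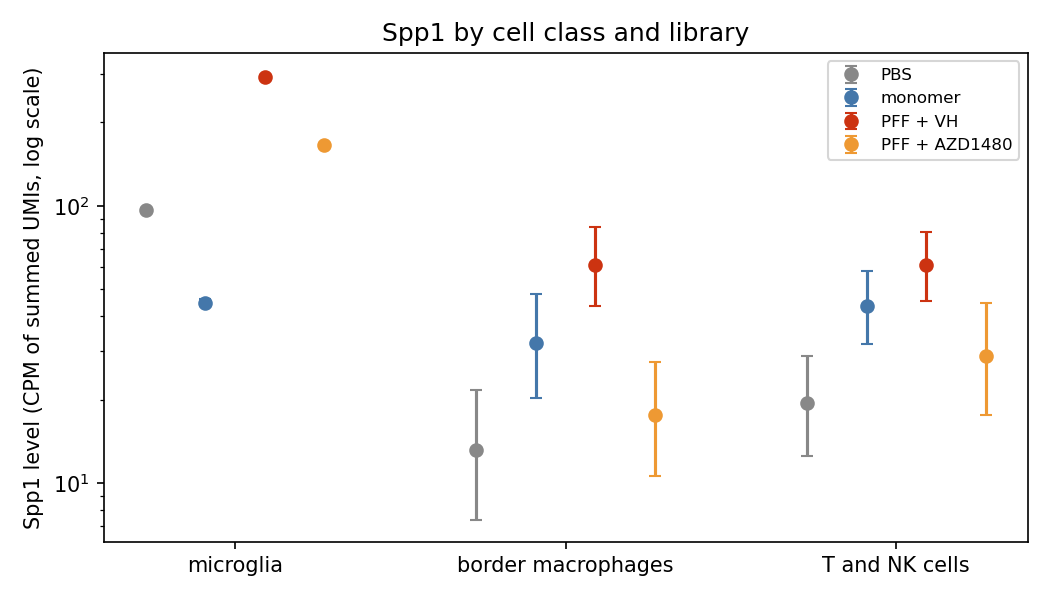
Spp1 level in CPM of summed UMIs (log axis) in microglia, border macrophages, and T and NK cells of the 4 libraries. Points are the level of 1 library and bars are exact Poisson 95% intervals. Microglia of PFF + VH stand at 292.8 CPM and those of monomer at 44.7 CPM, while border macrophages and T and NK cells of the same library have overlapping intervals.

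Border macrophages were also split by MHC class II. The MHC II high cells, with at least 5 UMIs of Cd74, H2-Aa, H2-Ab1 and H2-Eb1 per 1000, had 20.4 CPM in PBS, 62.3 in monomer, 91.2 with PFF + VH and 13.7 with PFF + AZD1480, from 7, 19, 16 and 4 UMIs. The MHC II low cells had 10.0, 9.65, 49.9 and 19.0 CPM, from 8, 4, 23 and 15 UMIs. The intervals of MHC II high and low cells overlapped in PBS, PFF + VH and PFF + AZD1480. In monomer they did not (37.5 to 97.2 against 2.63 to 24.7 CPM), and 7 of the 19 UMIs of the MHC II high cells there came from the same cell.

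In the order of the sums of marker-defined classes with at least 20 cells, MG of PFF + VH came first. Cells that met no marker rule, at 479 CPM with PFF + VH and 346 CPM with PFF + AZD1480, and cells with markers of more than 1 class, at 15.4 to 292.7 CPM, were left out of this order. B cells of monomer came next at 262.0 CPM, but their 36 UMIs were all in 1 cell. MG of PFF + AZD1480 followed, and then neutrophils of PFF + VH (104 CPM, 58.3 to 172), whose interval includes the level of MG of PBS. MG of monomer ranked with T and NK cells of monomer and PFF + VH, with overlapping intervals. Over these 20 sums, the genes whose log2(CPM + 1) ran most like that of Spp1 among 15503 genes were Cdca7 (Pearson r = 0.79), Rilpl1 (0.78), Zfp691 (0.74), Gm37876 (0.74) and Slc2a5 (0.73). The sums of a library share its depth and free RNA, and the correlations are a description. They run over several classes and need not hold between the libraries within MG. Slc2a5, itself a marker used to define MG, was there at 186 CPM in PBS, 226 in monomer, 139 with PFF + VH and 135 with PFF + AZD1480. It was thus highest in monomer, where Spp1 of MG was lowest.

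A Spp1 UMI was detected in a minority of MG. The share rises with depth, so a cell without a Spp1 UMI is not shown to lack the transcript. After thinning, a Spp1 UMI was found in 3.25% of MG in PBS (2.95 to 3.57), 2.23% in monomer (1.98 to 2.50), 13.4% with PFF + VH (12.97 to 13.78) and 5.94% with PFF + AZD1480 (5.52 to 6.40). Without thinning the shares were 10.6%, 7.14%, 24.0% and 17.6%. The thinned share in T and NK cells was 1.88%, 3.07%, 6.44% and 1.96%, at median depths of 5591, 6122, 3326 and 6522 UMIs against 7240, 6818, 2329 and 6761 UMIs in MG. In B cells, a smaller class of 27 to 52 thinned cells, it was 0%, 3.70%, 7.69% and 3.12%. In PFF + VH the share in MG lay above the interval of T and NK cells (3.47 to 10.8%). In PBS and PFF + AZD1480 that interval (0.514 to 4.74% and 0.238 to 6.90%) holds the share of MG, and in monomer the share of T and NK cells was the higher, so a single Spp1 UMI in a cell of those libraries cannot be told from the level in these lymphocytes. Border macrophages gave 0.962%, 2.94%, 5.67% and 1.92%, each inside the interval of T and NK cells.

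A class of MG with many Spp1 UMIs was present in all libraries. Spp1-high MG, with at least 3 Spp1 UMIs among 1000 thinned, were 86 of 12795 in PBS (0.672%, 0.538 to 0.829), 43 of 13011 in monomer (0.330%, 0.239 to 0.445), 657 of 27307 with PFF + VH (2.41%, 2.23 to 2.60) and 147 of 11289 with PFF + AZD1480 (1.30%, 1.10 to 1.53). In PFF + VH that share was 3.58 times the one in PBS and 1.85 times the one in PFF + AZD1480. T and NK cells held 1 such cell, in monomer. Border macrophages held 0 of 208, 0 of 136, 0 of 194 and 0 of 208, which, at 3 counts of the total, allows shares of up to 1.44%, 2.21%, 1.55% and 1.44%. The upper ends of the exact intervals were 1.76%, 2.68%, 1.88% and 1.76%. The cells set apart, with border markers but more microglia marker UMIs, held 0 of 90, 0 of 105, 1 of 239 and 4 of 147. With PFF + AZD1480, 167 of the 338 Spp1 UMIs of these cells came from 1 cell. The count of 0 is thus for border macrophages as the marker rule defines them. The cut is a point on a range: 23, 15, 228 and 48 of the Spp1-high MG had exactly 3 UMIs, and 38, 38, 488 and 85 other MG had 1 fewer.

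Spp1 UMIs were concentrated in few cells. Spp1-high MG held 65.4%, 45.2%, 53.1% and 58.9% of the Spp1 UMIs in PBS, monomer, PFF + VH and PFF + AZD1480. These shares count all Spp1 UMIs, before thinning, of the MG with at least 1000 UMIs. A set of the same share of cells in each library was taken as well. The 1% of MG with the most Spp1 UMIs held 75.9% of all MG Spp1 UMIs in PBS, 70.0% in monomer, 45.8% with PFF + VH and 60.3% with PFF + AZD1480. The highest single MG had 421, 293, 304 and 770 UMIs of Spp1. Without the 10 MG richest in Spp1, the level was 70.2 CPM in PBS, 33.5 in monomer, 274 with PFF + VH and 126 with PFF + AZD1480, in the same order of libraries, although 10 cells are a larger part of the MG of a smaller library. The distributions of PFF + VH and PFF + AZD1480 crossed in their far tail: at least 5 UMIs per 1000 were found in 1.15% of MG of PFF + VH and 0.700% of PFF + AZD1480, at least 10 in 0.352% and 0.266%, and at least 20 in 13 cells (0.0476%) and 14 cells (0.124%).

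**Figure D2:**
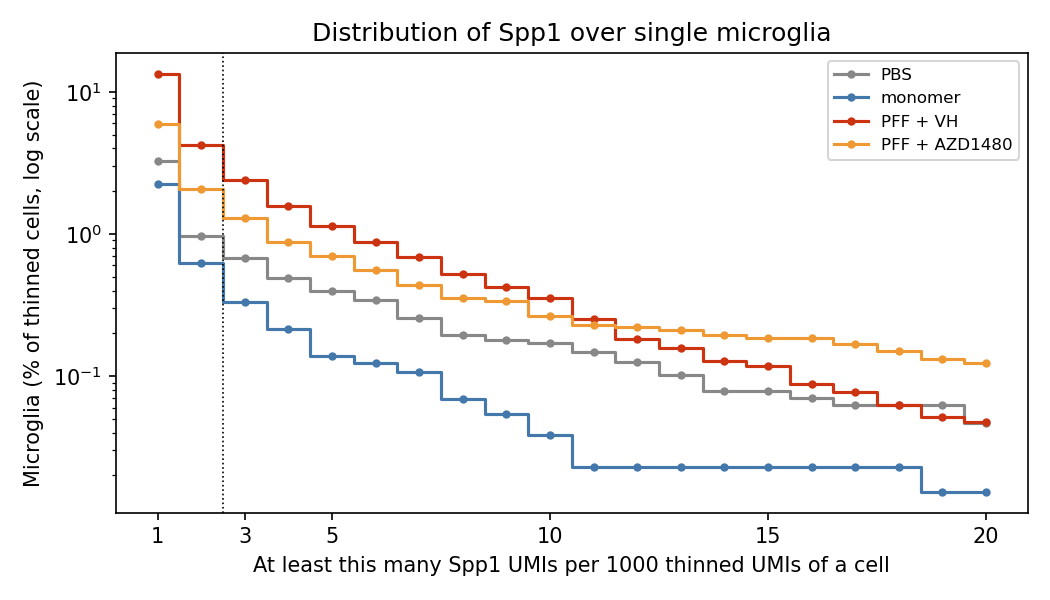
Percent of thinned microglia (log axis) with at least the number of Spp1 UMIs per 1000 given on the x axis, for the 4 libraries. The dotted line marks the limit of Spp1-high cells. PFF + VH lies highest from 1 UMI (13.4%) to 11 UMIs, and PFF + AZD1480 lies above it from 12 UMIs on, where 25 cells or fewer remain in that library.

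The study's upper limits on a cell, 15000 UMIs and 5000 genes, removed MG that were rich in Spp1. MG above these limits numbered 737 in PBS, 543 in monomer, 241 with PFF + VH and 532 with PFF + AZD1480, and their Spp1 level was 642, 324, 746 and 1011 CPM. With them included, the MG level was 166 CPM in PBS, 72.4 in monomer, 313 with PFF + VH and 263 with PFF + AZD1480. Of all cells above the limits, 62.4% with PFF + VH and 59.1% with PFF + AZD1480 carried more than 1 hashtag, against 10.2% and 11.8% of the cells within the limits. Libraries with deeper cells lost more of them, and the part of depth in these values was not tested.

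Among single-hashtag MG, the level of Spp1 in PFF + VH was 359 CPM for hashtag 1, 273 for hashtag 2, 320 for hashtag 3 and 277 for hashtag 4. In PFF + AZD1480 it was 133, 170, 168, 168 and 128 CPM for hashtags 1 to 5. All hashtags of PFF + AZD1480 lay below all of PFF + VH, and in MG 9.96% of the 13620 genes tested had hashtag groups apart in that direction. The means were 307.5 ± 40.6 CPM (SD, n = 4) and 153 ± 21.0 CPM (SD, n = 5), and the difference of the mean log2 levels was -1.01, which is 2.01 times higher in PFF + VH. All hashtags of a condition shared 1 library, so library and treatment cannot be told apart.

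The share of Spp1-high MG was apart between the hashtag groups too. It was 3.09%, 2.32%, 3.06% and 2.45% with PFF + VH and 0.787%, 1.46%, 1.06%, 1.60% and 1.49% with PFF + AZD1480, with means of 2.73% ± 0.405 (SD, n = 4) and 1.28% ± 0.343 (SD, n = 5). MG with any Spp1 UMI were 13.4% ± 1.48 and 6.23% ± 1.62, also without overlap. Within Spp1-high MG the mean number of Spp1 UMIs per 1000 was 6.06 ± 0.358 with PFF + VH and 8.61 ± 2.80 with PFF + AZD1480, and these groups overlapped. MG with exactly 1 Spp1 UMI after thinning were 8.82% ± 0.813 and 4.12% ± 1.20, again without overlap. The lower level in PFF + AZD1480 thus went with smaller shares both of Spp1-high MG and of MG with a single UMI. The mean number per Spp1-high cell covers only cells past the cut, so it cannot show whether the level per cell differed. With PFF + AZD1480 it ran from 5.41 to 11.7 over the hashtags. Spp1 in T and NK cells was apart in the same direction, at 24.5, 31.0, 105 and 60.0 CPM with PFF + VH and 17.4, 0, 0, 15.3 and 0 CPM with PFF + AZD1480, from 0 to 13 UMIs per hashtag; its part in the MG difference was not tested.

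The upper limits bear on this contrast. With no upper limit, and with hashtags called again over the larger set of cells, hashtags of PFF + VH stood at 362, 277, 353 and 335 CPM and those of PFF + AZD1480 at 180, 289, 253, 197 and 209 CPM. The groups then overlapped, with hashtag 2 of PFF + AZD1480 above hashtag 2 of PFF + VH, and the difference of the mean log2 levels shrank to -0.57. The share of Spp1-high MG stayed apart without the limits, at 2.32 to 3.16% against 1.08 to 1.99%.

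**Figure D3:**
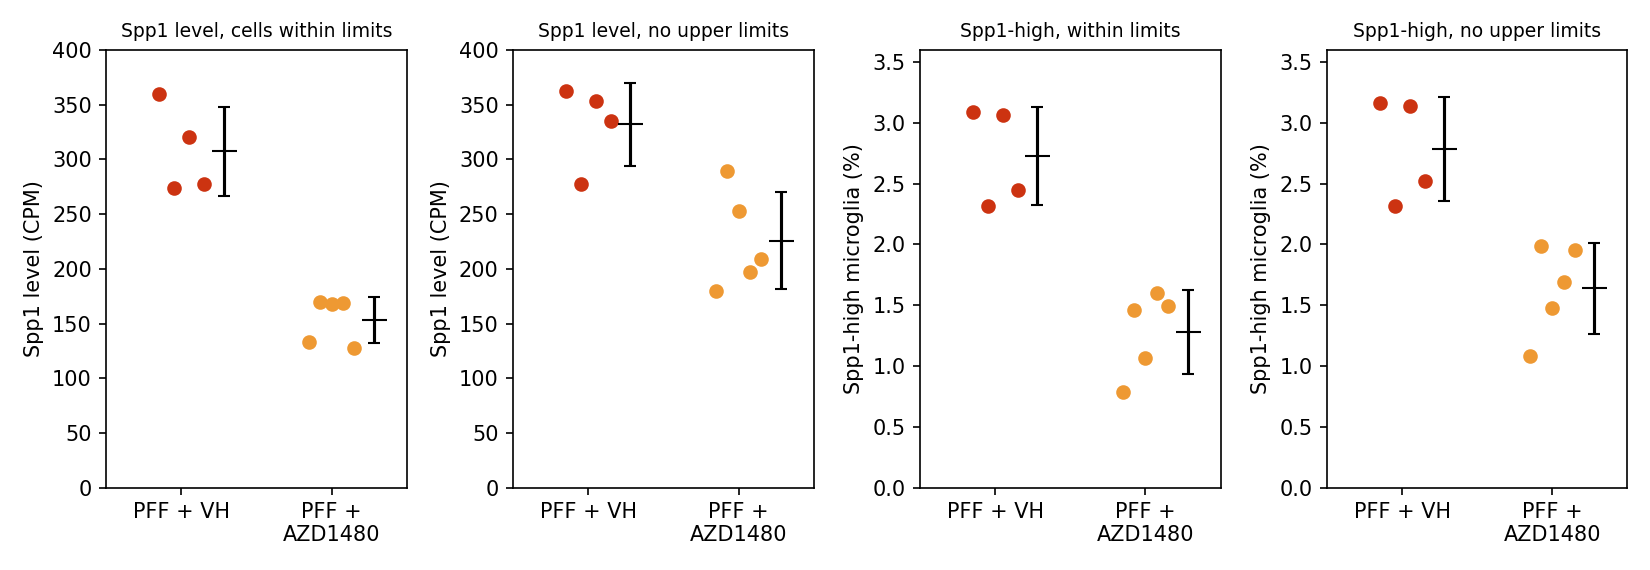
Spp1 level (CPM) and percent of Spp1-high microglia by hashtag with PFF + VH (4 points) and PFF + AZD1480 (5 points), for cells within the study's upper limits and with no upper limits; bars are the mean and SD. Within the limits the levels are 273 to 359 against 128 to 170 CPM, and without them 277 to 362 against 180 to 289 CPM.

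A single hashtag was called for 52.0% of cells with PFF + VH and 81.0% with PFF + AZD1480, and more than 1 for 10.7% and 12.5%. MULTIseqDemux, another caller, gave a single hashtag to 19.8% and 79.9% of cells, with a difference of the mean log2 Spp1 levels of -1.06. The 12029 MG of PFF + VH that got no hashtag had 1389 UMIs at the median and 200.0 CPM of Spp1, against 2956 UMIs and 305 CPM in its single-hashtag MG, so the hashtag values rest on the deeper cells of that library. In border macrophages the hashtags had 0 to 11 Spp1 UMIs each. Pooled over single-hashtag border macrophages, the level was 41.6 CPM with PFF + VH (25.4 to 64.2, 20 UMIs) and 22.6 CPM with PFF + AZD1480 (12.7 to 37.3, 15 UMIs), with overlapping intervals. Over all border macrophages, with or without a hashtag, the levels given above (61.3 and 17.6 CPM) differed 3.49 times with intervals that did not overlap, and those of T and NK cells (61.0 and 28.8 CPM) differed in the same direction.

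Genes that accompanied Spp1 were picked in PBS and monomer and then read in the PFF libraries. The 15 genes named here had the highest ratio of mean level in Spp1-high MG over MG with no Spp1 UMI left after thinning (Spp1-zero MG) in both PBS and monomer, among 749 genes with at least 10 UMIs in the Spp1-high cells of each. They were Igf1, Lpl, Olr1, Apoe, March3, Fxyd5, Csf1, H2-Ab1, H2-Aa, Cd74, Cd63, Pgk1, Cd52, Ccl6 and Cstb. Their ratios in PBS and monomer are high by this choice, which also took in genes that were low in MG at large, such as Igf1 and Olr1. The PFF libraries took no part in this choice of 15 genes, although Spp1 itself was selected with its co-expressed genes in all 4 libraries known. In both PFF libraries all 15 log2 ratios were over 1, that of H2-Aa in PFF + VH barely so. Over all genes at 10 CPM or more in the MG of a library, 7.57% in PBS, 11.2% in monomer, 2.12% with PFF + VH and 6.25% with PFF + AZD1480 had a log2 ratio over 1.

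By the lower of their ratios in PBS and monomer, Igf1 and Lpl came first in the set. The log2 ratio of Igf1, which encodes insulin-like growth factor 1, was 6.34 in PBS, 6.86 in monomer, 3.54 with PFF + VH and 3.97 with PFF + AZD1480. That of Lpl, lipoprotein lipase, was 5.19, 5.29, 3.57 and 3.66. That of Olr1, a scavenger receptor for oxidised LDL, was 4.70, 6.14, 3.88 and 2.93. Apoe, the main lipid carrier of the brain, had ratios of 4.38, 3.23, 2.28 and 3.17. March3, a ubiquitin ligase, had 3.11, 3.42, 1.72 and 1.85, Fxyd5, a regulator of the sodium pump, had 3.87, 3.05, 1.79 and 2.89, and Csf1, a ligand of the microglial survival receptor, had 3.47, 2.99, 1.59 and 1.40. The MHC class II genes H2-Aa (3.99, 2.81, 1.00 and 2.53) and H2-Ab1 (3.11, 2.98, 1.02 and 2.63) and the invariant chain gene Cd74 (3.70, 2.64, 1.37 and 2.67) were raised in the same cells. In PBS and monomer these ratios rest on few transcripts, with 31 and 11 UMIs of Igf1 and 58 and 19 UMIs of Lpl in the Spp1-high cells.

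**Figure D4:**
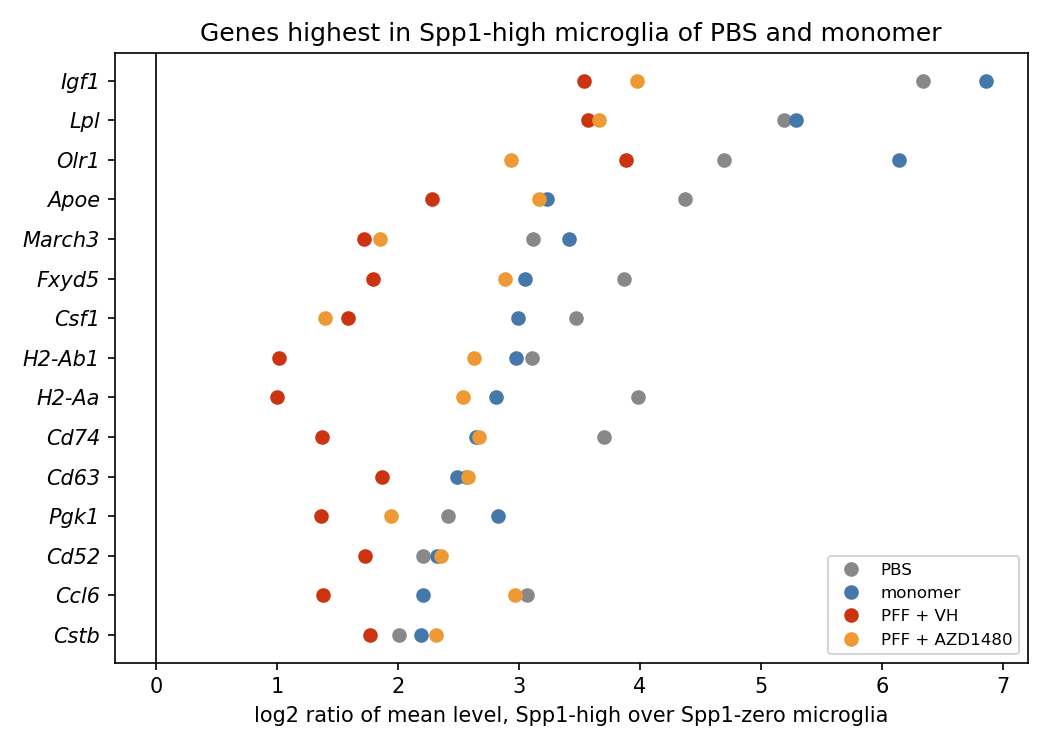
Log2 ratio of the mean level in Spp1-high over Spp1-zero microglia for the 15 genes with the highest ratio in both PBS and monomer, in each of the 4 libraries. Each point is 1 library; the points of PBS and monomer chose the genes, and those of PFF + VH and PFF + AZD1480 did not and lie right of 0, Igf1 at 3.54 and 3.97 and Cstb at 1.77 and 2.31.

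The hashtags allowed the same ratio to be taken within samples. Of the 15 genes, 12 were higher in Spp1-high than in Spp1-zero MG in 9 of 9 hashtags, against 2.74% of the 8316 genes at 10 CPM or more in MG, and the others were Igf1 (8 of 9), Olr1 (7 of 9) and H2-Aa (7 of 9). Lpl stood at 577 ± 126 CPM in Spp1-high and 48.7 ± 18.5 CPM in Spp1-zero MG of PFF + VH (SD, n = 4), and at 779 ± 414 and 68.9 ± 10.5 CPM in PFF + AZD1480 (SD, n = 5). Apoe stood at 17535 ± 6490 and 3678 ± 601 CPM with PFF + VH and at 27617 ± 11078 and 2731 ± 836 CPM with PFF + AZD1480. In Spp1-high MG both genes overlapped between the 4 and the 5 hashtags. Of the 15, 3 were apart between the groups in Spp1-high MG, 1 lower and 2 higher in PFF + AZD1480, where 4.85% and 0.625% of the 8316 genes were apart in these directions. Per hashtag, 14 to 43 Spp1-high MG (PFF + AZD1480) and 77 to 119 (PFF + VH) were summed, so genes near 10 CPM had few UMIs. Such genes can seldom be apart upward, so these shares and the 2.74% are no like reference for better expressed genes. Olr1 was 403 to 661 CPM with PFF + VH and 0 to 186 CPM with PFF + AZD1480, and H2-Ab1 was 134 to 356 CPM with PFF + VH and 364 to 706 CPM with PFF + AZD1480. The H2-Ab1 gap is narrow and rests on few UMIs, its nearest hashtags being 356 CPM (42 UMIs) and 364 CPM (12 UMIs). Cd63 was at 1706 ± 105 CPM with PFF + VH (SD, n = 4) and 2544 ± 481 CPM with PFF + AZD1480 (SD, n = 5). In Spp1-zero MG, H2-Ab1 was barely apart in the other direction, at 81.5 to 119 CPM with PFF + VH and 57.7 to 80.2 CPM with PFF + AZD1480.

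The genes of disease-associated microglia were raised in Spp1-high MG as a list. Of 19 counted genes, 15 in PBS, 13 in monomer, 18 with PFF + VH and 18 with PFF + AZD1480 stood at 10 CPM or more over all MG of the library, a limit that does not depend on the Spp1-high cells. Of these, 15, 13, 18 and 18 were higher in Spp1-high MG, as were 38.9%, 41.7%, 37.8% and 32.6% of all genes at that level. A log2 ratio over 1 was reached by 15, 9, 14 and 18 of them. Cst7, a lysosomal protease inhibitor, had ratios of 6.83, 4.70, 3.04 and 4.57, and Lgals3, galectin-3, had 4.03, 5.68, 3.13 and 3.36. Itgax, the CD11c gene, had 5.76, 3.72, 2.74 and 3.82. Few UMIs in Spp1-high cells stand behind some of these ratios, with 8 of Cst7 and 4 of Itgax in monomer and 5 and 9 of Lgals3 in PBS and monomer. In 9 of 9 hashtags 14 of the 19 were higher in Spp1-high MG, against 2.74% of the 8316 genes. Between the hashtag groups, Spp1-high MG had higher levels with PFF + AZD1480 and no overlap for 5 of the 19, namely Cd63, Cst7, Trem2, Ctsl and Tyrobp, and lower levels without overlap for 0, where 0.625% and 4.85% of the 8316 genes were apart in these directions. These shares over all genes include genes with few UMIs in Spp1-high MG and are no like reference for better expressed ones. Cst7 was 247 to 305 CPM with PFF + VH and 353 to 1488 CPM with PFF + AZD1480 in these cells, and Tyrobp, the adaptor of TREM2, 4013 to 4898 and 5706 to 7372 CPM. The nearest hashtags of Cst7 had 36 UMIs with PFF + VH and 6 UMIs with PFF + AZD1480, so its gap rests on few UMIs.

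Homeostatic genes ran the other way. P2ry12, the purinergic receptor by which resting microglia sense nucleotides, had log2 ratios of -1.74, -1.43, -1.53 and -1.90, and Tmem119 had -1.46, -1.67, -1.35 and -1.37. Of the 12 genes of the list, 10 were lower in Spp1-high MG in 9 of 9 hashtags, against 8.59% of the 8316 genes, and Olfml3 was lower in 8 of 9. The 8.59% includes genes with few UMIs in Spp1-high MG. Most genes of the list, P2ry12 and Tmem119 among them, are also markers that define MG. Spp1-high MG had 12.3 to 14.0 microglia marker UMIs per 1000, against 18.7 to 21.5 in Spp1-zero MG. Their border macrophage markers were at 0.0744 to 0.122 per 1000, against 0.0884 to 0.100. The rule for MG bounds both values, as it asks for at least 5 microglia marker UMIs per 1000 and fewer than 3 border macrophage markers. Single markers differed in direction in PFF + VH, with log2 ratios of 1.79 for Ms4a7 (25 UMIs in Spp1-high MG), 0.93 for Folr2 (21 UMIs) and -0.56 for Stab1 (25 UMIs). Cells with more than 1 hashtag were 14.0% of Spp1-high and 11.3% of Spp1-zero MG with PFF + VH, and 15.6% and 11.4% with PFF + AZD1480.

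The receptors of osteopontin were tested between PFF + AZD1480 and PFF + VH with edgeR's quasi-likelihood test on counts of MG summed per hashtag, with Benjamini-Hochberg adjustment over all genes. In that fit 3644 of 13620 genes passed the threshold of 0.05, which is 26.8%, with 12.2% of genes higher and 14.6% lower in PFF + AZD1480, and the median log2 fold change was -0.00208. All hashtags of a condition shared 1 library, so this test and those below cannot tell treatment from library. Single-hashtag MG had 2956 UMIs at the median with PFF + VH and 6836.5 with PFF + AZD1480. Of 8 receptor subunits tested, 4 were higher in PFF + AZD1480 and 0 were lower. Itgav, the αv subunit that binds the RGD site of osteopontin, went from 218 to 303 CPM (log2 fold change 0.42, SE 0.05, adjusted p = 0.000103). Its partner subunit Itgb5 went from 849 to 1019 CPM (0.21, SE 0.06, adjusted p = 0.0288), a call lost without hashtag 1 of PFF + VH (adjusted p = 0.0841). Itga9, whose integrin binds a site next to the RGD motif, went from 107 to 144 CPM (0.38, SE 0.08, adjusted p = 0.00453), and Itga5 from 44.3 to 66.1 CPM (0.51, SE 0.14, adjusted p = 0.0158).

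The other receptor genes did not pass. Cd44, the hyaluronan receptor that also binds osteopontin, was at 17.0 CPM with PFF + VH and 14.5 CPM with PFF + AZD1480 (adjusted p = 0.174), Itga4 at 7.39 and 6.04 CPM (adjusted p = 0.0619), Itgb3 at 28.3 and 33.0 CPM (adjusted p = 0.126) and Itgb1 at 263 and 267 CPM (adjusted p = 0.747). Itgb6 and Itga8 were too low to be tested. Across the 4 libraries the Cd44 level of MG was 6.74 CPM in PBS, 8.94 in monomer, 16.9 with PFF + VH and 14.4 with PFF + AZD1480, and that of Itga9 was 173, 162, 112 and 148 CPM. Within a library Itga9 was lower in Spp1-high than in Spp1-zero MG, with log2 ratios of -1.99, -1.89, -1.13 and -2.24, from 4, 2, 35 and 5 UMIs in the Spp1-high cells. Cd44 was higher in Spp1-high MG of PFF + VH (2.13, 40 UMIs), and Itga5 was higher in PBS (2.18, 12 UMIs) and PFF + VH (0.92, 44 UMIs) and at -0.04 with PFF + AZD1480 (8 UMIs). Itgav and Itgb5 were lower in Spp1-high MG of all 4 libraries. Their log2 ratios were -0.21, -0.14, -0.34 and -0.66 for Itgav and -0.15, -0.69, -0.24 and -0.23 for Itgb5. Those of Itgb1 were -0.39, -0.15, 0.04 and -0.19.

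Of the enzymes that cut or modify osteopontin, 4 were tested in MG and 0 passed with edgeR, also at an unadjusted p under 0.05 and with DESeq2. Mmp12, macrophage elastase, was at 1.26 CPM in PBS, 1.07 in monomer, 20.8 with PFF + VH and 13.1 with PFF + AZD1480, with means of 17.7 and 10.8 CPM over the hashtags (log2 fold change -0.68, SE 0.40, adjusted p = 0.233). In Spp1-high MG of PFF + VH its log2 ratio was 3.51. Fam20c, the kinase that phosphorylates secreted proteins such as osteopontin, was at 3.31, 2.47, 8.58 and 13.6 CPM in the 4 libraries, and its ratio in Spp1-high MG was 5.53, 5.45, 3.15 and 3.38, from 8, 4, 32 and 14 UMIs. Ctsd, a lysosomal protease, stood at 5095 and 4943 CPM over the hashtags (adjusted p = 0.429), and Tgm2, which crosslinks osteopontin, at 57.7 and 61.9 CPM (adjusted p = 0.669). Mmp9 was below 1 CPM in the MG of every library and at 53.6 to 115 CPM in border macrophages.

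The disease-associated genes that accompany Spp1 did not all differ as it did between PFF + AZD1480 and PFF + VH. Of 19 tested in MG, 8 were lower in PFF + AZD1480 (14.6% of all genes tested), 0 were higher (12.2% of all genes) and 11 did not pass, with a median log2 fold change of -0.20. Ccl6, a chemokine, fell by 1.35 on the log2 scale (SE 0.15, adjusted p = 8.41e-05), from 330 to 134 CPM. Lgals3 (-0.73, SE 0.16, adjusted p = 0.0063), Axl, a receptor for apoptotic cells (-0.66, SE 0.14, adjusted p = 0.00482), and Fabp5, a fatty acid carrier (-0.62, SE 0.17, adjusted p = 0.0183), fell as well. Ctsl, Tyrobp, Cd63 and Cd68 fell by 0.35, 0.35, 0.32 and 0.22. The calls of Cd63 and Cd68 were lost in 6 of 15 alternative fits each, and that of Fabp5 without hashtag 3 of PFF + VH (adjusted p = 0.0588). Fabp5 and Lgals3 had high ratios in Spp1-high MG, and other genes with high ratios did not pass: Igf1 was at 39.3 and 35.8 CPM (adjusted p = 0.71), Lpl at 86.4 and 83.5 CPM (adjusted p = 0.703), Cst7 at 45.4 and 40.6 CPM (adjusted p = 0.491) and Itgax at 31.1 and 27.7 CPM (adjusted p = 0.362). Apoe was at 4592 and 3291 CPM (log2 fold change -0.53, SE 0.21, adjusted p = 0.0815).

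Of the 15 genes highest in Spp1-high MG, 10 were lower in PFF + AZD1480, against 14.6% of all genes tested, and 5 did not pass, among them Igf1, Lpl and Csf1. These 15 were picked by their level in Spp1-high MG, whose share was 2.73% with PFF + VH and 1.28% with PFF + AZD1480. Their count is therefore a description and no independent support for the pattern of Spp1. The 14.6% covers genes at any level and is no like reference for the 15. Ccl6, given above, had the largest fall of the 10. The MHC class II genes were lower as well, with H2-Aa at -0.92 (SE 0.09, adjusted p = 4.90e-05), Cd74 at -0.71 (SE 0.07, adjusted p = 4.74e-05) and H2-Ab1 at -0.52 (SE 0.09, adjusted p = 0.00166). Olr1 fell by 0.73 (SE 0.13, adjusted p = 0.0019) and Cd52, a small surface glycoprotein, by 0.66 (SE 0.11, adjusted p = 0.00103). Fxyd5, Pgk1 and Cstb fell by 0.54, 0.27 and 0.26, the call of Fxyd5 being lost in 4 of 15 alternative fits.

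Of 12 homeostatic genes 3 were higher in PFF + AZD1480, namely Selplg (0.50, SE 0.09), the fractalkine receptor Cx3cr1 (0.23, SE 0.05) and the transcription factor Sall1 (0.17, SE 0.05), the last a call lost without hashtag 3 of PFF + VH (adjusted p = 0.0591). Olfml3 was lower (-0.24, SE 0.08), a call lost in 7 of 15 alternative fits, and 8 did not pass, while 12.2% and 14.6% of all genes were called higher and lower. Among those that did not pass were P2ry12 with a log2 fold change of -0.0024 and Tmem119 with 0.10. Among the border macrophage markers, 6 were measurable in MG and 2 were lower there in PFF + AZD1480, Ms4a7 at 12.4 and 3.23 CPM and Mrc1 at 5.53 and 3.57 CPM.

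**Figure D5:**
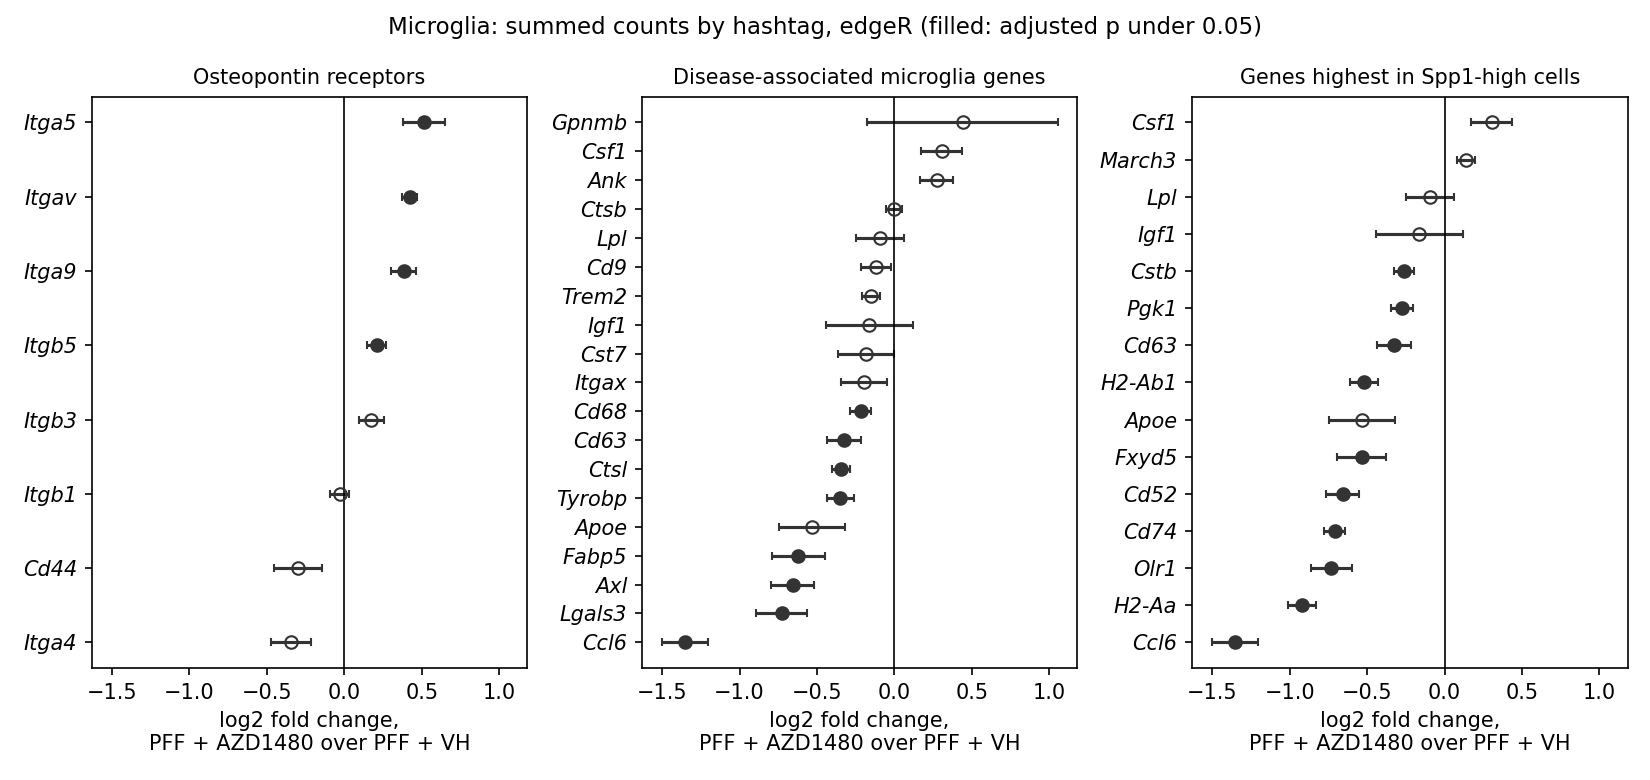
Log2 fold change in microglia, PFF + AZD1480 over PFF + VH, for osteopontin receptors, disease-associated microglia genes and the 15 genes highest in Spp1-high cells. Bars are the standard error of the edgeR fit over 4 and 5 hashtags and filled points have an adjusted p under 0.05: 4 of 8 receptors are filled and right of 0, and 8 of 19 disease-associated genes are filled and left of it.

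In border macrophages the same test called 10 of 2727 genes (0.367%), with 266 at an unadjusted p under 0.05 and 15 called by DESeq2. None of 5 receptors, 2 enzymes, 11 disease-associated genes and 11 genes of the Spp1-high set passed there, by edgeR or by DESeq2; at an unadjusted p under 0.05 there were 0, 0, 3 and 4 of them. The calls split into 4 higher and 6 lower with edgeR and into 9 and 6 with DESeq2. Ccl6 was at 456 and 152 CPM (log2 fold change -1.48, SE 0.40, adjusted p = 0.124), and H2-Aa at 2088 and 3711 CPM (0.83, SE 0.30, adjusted p = 0.317). Sums of a hashtag held 30803 to 191159 UMIs in border macrophages against 7368462 to 18705790 in MG, and in simulated data the test recovered 57.0% of 2-fold changes in border macrophages and 86.9% in MG.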

How the data were processed

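The authors sorted CD45+ cells, made 10x 3' v3.1 libraries, aligned them to mm10 and deposited UMI counts per gene and cell; the file headers name Cell Ranger 7.0.1. No class labels were used from the study. Cells with 500 to 15000 UMIs, 250 to 5000 genes and at most 10% mitochondrial UMIs were kept, the limits of the study. No doublet caller was run; cells with 3 or more markers of another class were set apart. The smallest marker counts were set after the files were seen, without Spp1. The members and gene lists were chosen with earlier results of these data known.

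Hashtags were called with HTODemux (Seurat 5.3.0, quantile 0.99). Treating each hashtag as a replicate is an assumption from their number, which equals the number of replicates stated for each PFF condition. For PBS and monomer the study states 3 replicates each, while each had 1 library without hashtags, so their replicates could not be separated here. Counts were summed per hashtag and tested with edgeR 4.0.16 (TMM, filterByExpr, R 4.3.3), in place of the cell-level Hurdle model of the study. The test was tried on simulated data with genes changed by 2-fold. Total depth was 99658216 to 116440449 UMIs per library. Named list genes were those past the threshold, plus receptors and enzymes at 10 CPM or more in MG or border macrophages; others given beside them, such as Cst7, Itgax and Lgals3, were chosen after their values were seen. Alternatives were RLE scaling, DESeq2 1.42.0, no filter, other marker and depth limits, MULTIseqDemux, and leaving out each hashtag. Values of 1 homeostatic gene are not reported here. The minimum of 10 CPM over all MG, used for shares of genes higher or lower in Spp1-high MG, was set after the data were seen.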

Additional observations from a re-analysis of the deposited data

Results flagged for a closer look

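Spp1 was also present outside the classes compared above. Cells that met no marker rule stood at 479 CPM with PFF + VH and 346 CPM with PFF + AZD1480, above the 110 CPM that was the higher of the values in PBS and monomer. Cells above the upper limits stood at 714 CPM with PFF + VH and 929 CPM with PFF + AZD1480, above the higher control value of 591 CPM. Of 58 checks for a hashtag far from the others of its group, 5 stood out, where chance gives about 1 in 20. The share of border macrophages with a Spp1 UMI was 6.45% in hashtag 1 of PFF + AZD1480 (2 of 31 thinned cells) and 0% in the other 4, while without thinning it was 18.9% there and 15.4% in hashtag 5. In MG of PFF + VH, Cd63 was 606 CPM in hashtag 3 against 521 to 524 CPM, Tyrobp was 2350 CPM in hashtag 2 against 2618 to 2672 CPM, and Olfml3 was 925 CPM in hashtag 4 against 709 to 737 CPM. In MG of PFF + AZD1480, Olr1 was 45.7 CPM in hashtag 1 against 34.1 to 34.4 CPM.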

How the results depend on the processing

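The direction of Spp1 between PFF + AZD1480 and PFF + VH was kept under all alternatives run, with a difference of mean log2 levels of -1.06 to -0.93 when each hashtag was left out, -0.94 with the hashtag number as a replicate block, -0.57 with no upper limit and -1.55 without the 10 richest cells of each hashtag, a number that takes a larger part of the 14 to 43 Spp1-high MG of a PFF + AZD1480 hashtag than of the 77 to 119 of a PFF + VH hashtag, so that a wider gap follows from its construction. The last pair, and all other settings on upper limits for shares and on the richest cells, were chosen after seeing the data. With no upper limit, the MG level was 166 CPM in PBS, 72.4 in monomer, 313 with PFF + VH and 263 with PFF + AZD1480, and the share of MG with a Spp1 UMI was 3.61% in PBS and 6.63% with PFF + AZD1480. Without the 10 richest MG the levels were 70.2, 33.5, 274 and 126 CPM. With Gm42418 and mitochondrial genes left out of the total they were 300.4 CPM with PFF + VH and 168 CPM with PFF + AZD1480, and in single-hashtag cells 305 and 156 CPM, with 41.6 CPM in border macrophages of PFF + VH. Shares move with the depth by construction. For MG of PBS, monomer, PFF + VH and PFF + AZD1480 they were 4.69%, 3.51%, 19.3% and 9.32% at 2000 UMIs, 10.6%, 7.14%, 24.0% and 17.6% without thinning, and 0.969%, 0.623%, 4.19% and 2.06% for at least 2 UMIs. For border macrophages they were 5.94% in PBS, 11.7% with PFF + VH and 7.98% with PFF + AZD1480 without thinning, and 0% in monomer, 2.06% with PFF + VH and 0% with PFF + AZD1480 for at least 2 UMIs. MG genes called ranged from 2895 to 3369 without each hashtag. Those of border macrophages ranged from 6 to 13 and were 3 with MULTIseqDemux and 62 with no filter, and 6 each without hashtag 2 or 5 of PFF + AZD1480. Of 360 values of 24 called list genes in 15 alternative fits, 334 stayed past the threshold, 26 did not and 0 changed sign. None of these fits lifted the upper limits on UMIs and genes, so the calls were not examined without those limits. The hashtag numbers share no origin in the labels, and same-numbered hashtags correlated at -0.03 to 0.07 in MG, so the block was not used; with it 3204 MG genes were called. No fold by hashtag was taken in border macrophages, whose hashtags had too few Spp1 UMIs. The cause of these moves was not tested.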
